A study of Mus musculus with 6 samples.

Results

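The genes described here are the 5 subunits of the transcription factor NF-kB (Nfkb1, Nfkb2, Rel, Rela and Relb), the 3 IkB inhibitor genes Nfkbia, Nfkbib and Nfkbie, and Tnfaip3 and Traf1, which act in the signalling that releases NF-kB. They were taken by gene name, and FPKM, fragment counts scaled by transcript length and library size, was summed over the transcripts of each gene. The 10 genes hold 14 transcripts and are 10 of the 24011 genes in the table. All 10 passed the filter on low values (at least 1 FPKM in 2 or more libraries).

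Total RNA was sequenced from CD4 T cells of C57BL/6 mice, sorted by flow cytometry from lymph nodes and spleens. Naive CD4 T cells were CD4+ CD62L+ CD25-, and natural regulatory T cells (nTregs) were CD4+ CD62L+/- CD25 high. Both were frozen straight after sorting, or, for a further set of nTregs, stimulated with plate-coated anti-CD3 (2 µg/ml), soluble anti-CD28 (2 µg/ml) and IL-2 (100 U/ml). The labels give the stimulation as 24 h in one place and 48 h in another. Each population came from wild type (WT) mice and from YAP cKO mice, which carry YAP flox/flox and CD4-Cre. Cre under the CD4 promoter acts from the thymus onward, so the allele is recombined in all alpha-beta T cells and not in Tregs alone. This gives 6 libraries, 1 per group, and the labels do not say how many mice stand behind each. WT and cKO libraries of 1 population served as its pair in the tests of populations, so p-values there measure spread between libraries, not between mice. In these tests and in that of genotype, the residual spread is that of the genotype difference over the 3 populations. A genotype difference confined to 1 population therefore counts as error. Stimulation, the time in culture and the time since sorting cannot be told apart.

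NF-kB is held in the cytoplasm by IkB proteins. Signals from the T cell receptor, CD28 and receptors of the TNF family activate the IkB kinase, IkB is degraded, and dimers of the Rel family enter the nucleus. Several of the genes switched on in this way encode the brakes of the pathway itself, among them IkB alpha (Nfkbia) and the ubiquitin-editing enzyme A20 (Tnfaip3). In mice, c-Rel (Rel) is needed for normal Treg development in the thymus.

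Promoter sequence was examined because NF-kB binds DNA at the kappaB site and several of its subunit and inhibitor genes are known targets of it. RefSeq promoter windows (GRCm38.p6), trimmed to the 250 bases before the transcript start, were matched by symbol for 8 of the 10 genes, in 11 windows, with Nfkb1 and Relb unmatched. Both strands were searched for 2 spellings of the kappaB site, GGG, any 2 bases and TTTCC, or GGG, any 2 bases and TTCCC, whose matches can overlap. The first was in 5 of the 11 windows, in the genes Nfkb2, Rel, Nfkbia and Tnfaip3, against 1.41% of all 32851 windows of the same length. The second was in 2 of the 11 windows, in Nfkb2 and Rel, against 1.53% of all windows. A looser spelling, GGG, any 5 bases and CC, which contains every match of the other two, was in 9 of the 11 windows, from 6 of the 8 genes, and in 45.8% of all windows. The 4 windows below, from genes holding the first spelling, are shown 5′ to 3′ on the strand of the gene with the matches to the first and second spelling in capitals. Nfkbia lies at chr12:55492648-55492897 (minus strand), Tnfaip3 at chr10:19015411-19015660 (minus strand), Nfkb2 at chr19:46304487-46304736 (plus strand) and Rel at chr11:23770970-23771219 (minus strand).
Nfkbia: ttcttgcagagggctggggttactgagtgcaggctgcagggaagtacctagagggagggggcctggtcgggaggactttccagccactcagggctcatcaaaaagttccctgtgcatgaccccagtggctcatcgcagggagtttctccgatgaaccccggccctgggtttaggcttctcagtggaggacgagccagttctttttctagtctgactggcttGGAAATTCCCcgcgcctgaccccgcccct
Tnfaip3: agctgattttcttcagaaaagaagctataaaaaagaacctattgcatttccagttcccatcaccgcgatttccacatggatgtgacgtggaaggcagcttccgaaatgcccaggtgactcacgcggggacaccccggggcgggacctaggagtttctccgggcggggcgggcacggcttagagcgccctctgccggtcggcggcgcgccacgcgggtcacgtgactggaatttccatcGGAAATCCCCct
Nfkb2: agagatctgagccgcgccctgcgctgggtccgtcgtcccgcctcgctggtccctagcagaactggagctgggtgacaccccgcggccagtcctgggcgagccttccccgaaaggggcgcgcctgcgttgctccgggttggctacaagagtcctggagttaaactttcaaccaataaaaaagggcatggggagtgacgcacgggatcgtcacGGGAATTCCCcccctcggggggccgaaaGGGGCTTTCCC
Rel: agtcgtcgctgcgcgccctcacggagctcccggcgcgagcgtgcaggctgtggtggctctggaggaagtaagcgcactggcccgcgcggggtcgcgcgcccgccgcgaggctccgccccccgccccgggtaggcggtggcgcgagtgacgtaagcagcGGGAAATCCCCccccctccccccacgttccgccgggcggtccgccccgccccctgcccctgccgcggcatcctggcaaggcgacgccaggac
The Nfkbia match starts at position -29 and the Tnfaip3 match at position -12 from the transcript start. In the Nfkb2 and Rel windows matches of both spellings overlap, with starts 1 base apart. These matches are letters in a window and say nothing of binding in these cells.

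The libraries held 10210 to 10893 genes at 1 FPKM or more. The stimulated libraries stood apart, with FPKM sums of 534274 and 595524 against 837179 to 968967 in the other 4, and with 4122 and 4872 genes at 0 against 9110 to 10154. A fragment on a 1 kb transcript counted for an estimated 0.106 to 0.138 FPKM, so the 10 genes stood on about 95.5 fragments (Nfkbib in WT stimulated nTregs) to about 35190 (Tnfaip3 in WT fresh nTregs). The Treg transcription factor gene Foxp3 stood at 2.98 and 3.30 FPKM in the naive libraries and at 45.9 to 57.8 in the 4 nTreg libraries. Pairs of values are given here and below with WT before cKO. Yap1 was listed at 0 in 4 libraries and was 0.169 and 0.235 FPKM in stimulated nTregs, so it gave no check of the genotype. The columns read as cKO carry an abbreviation that the labels do not spell out and were assigned by elimination, so every direction between genotypes rests on that reading.

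**Figure D1:**
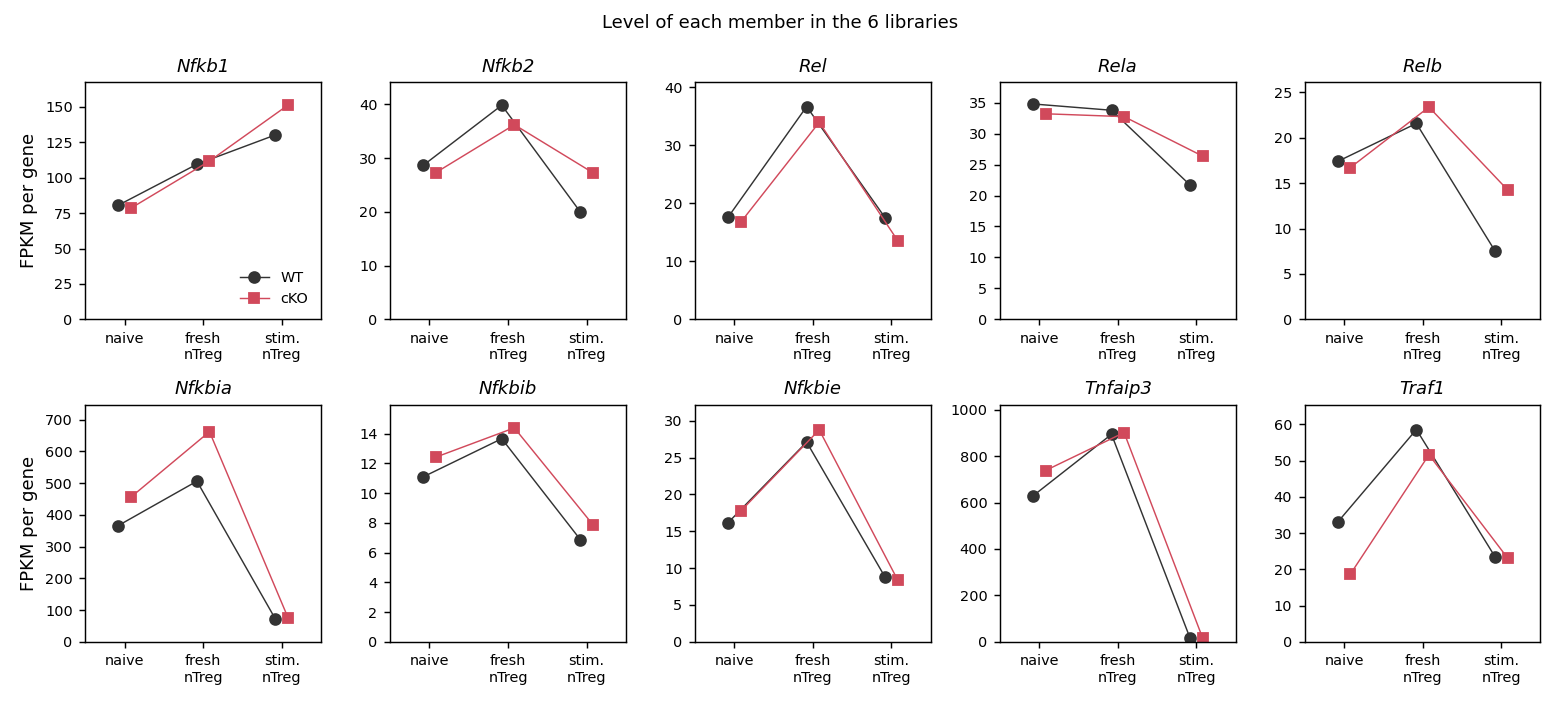
FPKM of each of the 10 genes (vertical axis, from 0, with its own scale per panel) in naive CD4 T cells, fresh nTregs and stimulated nTregs (horizontal axis); black circles are WT and red squares cKO, 1 library each. Tnfaip3 goes from 894 and 902 FPKM in fresh nTregs to 15.7 and 16.2 after stimulation, while Nfkb1 is highest in stimulated cells.

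Nfkb1 (chromosome 3, 135584655 to 135691969, mm10), which encodes p105 and its product p50, had the most RNA of the subunits. It was 80.6 and 78.5 FPKM in naive T cells, 110 and 112 in nTregs before and 130 and 151 after stimulation. The 3 populations did not overlap, and the order from naive to stimulated cells was the same in both genotypes. Nfkb1 rose 1.39-fold from naive cells to fresh nTregs (log2 difference 0.47, SE 0.09, limma adjusted p = 0.011). It rose a further 1.27-fold after stimulation (0.34, SE 0.09, limma adjusted p = 0.0207). Fold changes from limma, here and below, are on the log2(FPKM + 1) scale. Folds between single libraries are plain ratios of FPKM.

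Rel (chromosome 11, 23736847 to 23770969), which encodes c-Rel, was 17.6 and 16.7 FPKM in naive T cells, 36.6 and 33.9 in nTregs before and 17.5 and 13.5 after stimulation. Both fresh nTreg libraries were well above the other 4. Rel rose 2.00-fold in fresh nTregs over naive cells (SE 0.10 on the log2 scale, limma adjusted p = 0.00126) and fell 2.21-fold after stimulation (limma adjusted p = 0.000525).

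Rela (chromosome 19, 5637442 to 5648134) encodes p65, the activating subunit of the most common NF-kB dimer. It was 34.8 and 33.2 FPKM in naive T cells, 33.8 and 32.7 in nTregs before and 21.7 and 26.4 after stimulation. The naive and fresh values overlapped (log2 difference -0.03, SE 0.11, limma adjusted p = 0.855). Both stimulated libraries were lower, and Rela fell 1.37-fold (limma adjusted p = 0.0153). When each library was rescaled to the same FPKM sum, Rela stood at 0.10 (limma adjusted p = 0.399) while the median of all genes moved to 0.47. Relative to that median Rela was at -0.37, against -0.41 in the deposited scaling.

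Nfkb2 (chromosome 19, 46300994 to 46312400) encodes p100, the precursor of p52. It was 28.7 and 27.3 FPKM in naive T cells, 39.9 and 36.2 in nTregs before and 20.0 and 27.3 after stimulation. The difference between fresh and naive cells did not pass the test (0.43, SE 0.15, limma adjusted p = 0.0741), although both fresh libraries lay above both naive ones. Nfkb2 fell 1.60-fold after stimulation (limma adjusted p = 0.0115), and at an equal FPKM sum that call was lost (-0.12, limma adjusted p = 0.403). Of the 3 Nfkb2 transcripts, NM_001177369 held 42.3% and 39.6% of the gene's FPKM in naive T cells, 57.4% and 48.4% in nTregs before and 75.8% and 67.2% after stimulation. Splits between transcripts are the authors' estimates from shared reads. Nfkb2 shares exon positions with Psd on the other strand (0.538 to 3.06 FPKM), and whether strand was used in counting is not given in the sources used here.

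Relb (chromosome 7, 19606217 to 19629438) encodes the usual partner of p52. It was 17.4 and 16.7 FPKM in naive T cells, 21.6 and 23.4 in nTregs before and 7.55 and 14.3 after stimulation. Both stimulated libraries were below the other 4, and they also differed most from each other. Relb was at 0.38 between fresh and naive cells (SE 0.21, limma adjusted p = 0.222) and fell 2.05-fold after stimulation (limma adjusted p = 0.00928). These values include NM_001290457, which carries no symbol in the deposited table, is Relb in RefSeq and held 59.7% to 99.99% of the gene. With the symbol-bearing transcript alone (3.05, 6.74, 2.67, 0.00181, 0.00470 and 0.0118 FPKM), the difference of fresh and naive cells was -1.55 (limma adjusted p = 0.151) and that of stimulated and fresh nTregs -0.93 (limma adjusted p = 0.302).

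Nfkbia (chromosome 12, 55489409 to 55492647), which encodes IkB alpha, the rapidly resynthesised inhibitor, was among the most abundant RNAs of the unstimulated cells. It was 367 and 456 FPKM in naive T cells, 506 and 662 in nTregs before and 71.4 and 75.8 after stimulation. The stimulated libraries lay far below the other 4, and in both unstimulated populations cKO lay above WT. Nfkbia rose 1.42-fold in fresh nTregs over naive cells (limma adjusted p = 0.0126) and fell 7.78-fold after stimulation (log2 difference -2.96, SE 0.10, limma adjusted p = 3.50e-05). Its rank among all genes by FPKM went from 157 and 137 in fresh to 879 and 906 in stimulated nTregs.

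Nfkbie (chromosome 17, 45555700 to 45563169), which encodes IkB epsilon, was 16.2 and 17.7 FPKM in naive T cells, 27.1 and 28.8 in nTregs before and 8.75 and 8.37 after stimulation. It rose 1.61-fold in fresh nTregs (limma adjusted p = 0.00384) and fell 3.03-fold after stimulation (limma adjusted p = 0.000163). Nfkbib (chromosome 7, 28758251 to 28766644), which encodes IkB beta, had the least RNA of the 3 inhibitors. It was 11.1 and 12.4 FPKM in naive T cells, 13.7 and 14.4 in nTregs before and 6.87 and 7.88 after stimulation. It did not pass the test between fresh and naive cells (0.24, SE 0.10, limma adjusted p = 0.117) and fell 1.80-fold after stimulation (limma adjusted p = 0.00122). Nfkbib is uncertain, because Sirt2 (15.4 to 22.9 FPKM) overlaps its exons on the other strand.

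Tnfaip3 (chromosome 10, 19000910 to 19015410), which encodes A20, changed most of the 10. It was 629 and 738 FPKM in naive T cells, 894 and 902 in nTregs before and 15.7 and 16.2 after stimulation. It ranked 119 and 115 among all genes in fresh nTregs and 4555 and 4618 after stimulation. Tnfaip3 rose 1.32-fold in fresh nTregs over naive cells (limma adjusted p = 0.0183). After stimulation it fell 53.0-fold (log2 difference -5.73, SE 0.09, limma adjusted p = 1.68e-06), the size ranking 10 among 11224 genes. As plain ratios of FPKM, the fall was 57.1-fold in WT and 55.6-fold in cKO nTregs. The transcript NM_001166402 held 66.3% and 63.3% of Tnfaip3 in fresh and 77.9% and 80.3% in stimulated nTregs.

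Traf1 (chromosome 2, 34941750 to 34961812) encodes an adaptor of TNF receptor family members. It was 33.1 and 18.7 FPKM in naive T cells, 58.6 and 51.6 in nTregs before and 23.5 and 23.2 after stimulation. The naive libraries differed from each other more than those of either nTreg population. Traf1 rose 2.16-fold in fresh nTregs (log2 difference 1.11, SE 0.18, limma adjusted p = 0.00702) and fell 2.30-fold after stimulation (limma adjusted p = 0.00317).

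**Figure D2:**
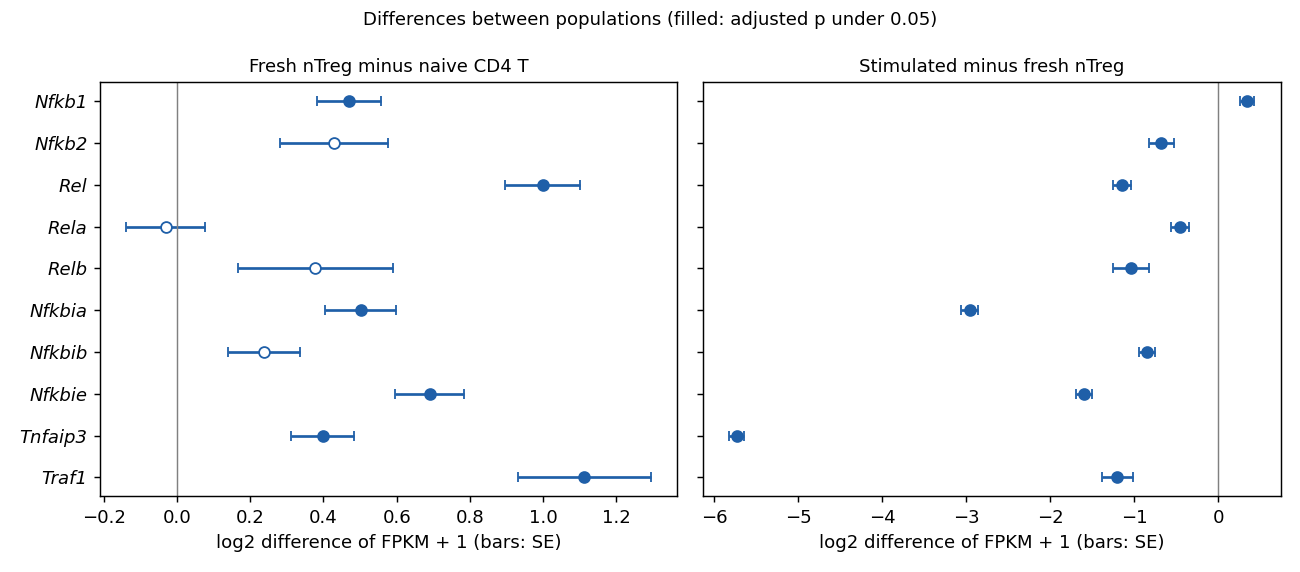
Log2 differences of FPKM + 1 (horizontal axis) for the 10 genes between fresh nTregs and naive CD4 T cells (left) and between stimulated and fresh nTregs (right); points are limma estimates over 6 libraries, bars the SE, and filled points have an adjusted p under 0.05. In the right panel 9 genes lie below 0, with Tnfaip3 at -5.73 and Nfkbia at -2.96, and Nfkb1 lies above 0 at 0.34.

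Between fresh nTregs and naive cells, 6 of the 10 genes rose, none fell and 4 did not pass the test. Among all 11224 genes tested, 16.5% were called higher (1853) and 14.7% lower (1655). The median difference was 0.45 over the 10 genes and -0.02 over all genes tested. Both fresh libraries were above both naive ones for 9 of the 10, all but Rela, against 33.2% of all genes, and no member was lower in this way, against 37.7%. The calls for Rel and Traf1 held when any 1 library was left out. Leaving out the WT fresh library left 3 of the 10 called higher (Nfkb1 at adjusted p = 0.117, Nfkbia at 0.0611 and Tnfaip3 at 0.204 by limma), and leaving out the cKO fresh library left 2 (with Nfkbie also lost, at 0.0502). Leaving out either naive library left 4, and Nfkbia was lost in both cases (limma adjusted p = 0.0885 without WT and 0.0583 without cKO). Without either stimulated library, 8 were called, Nfkb2 and Relb being added. Calls over all genes moved too, from 1853 higher to 907 and 916 without the WT and cKO fresh libraries, 1303 and 1217 without the naive ones and 2301 and 2312 without the stimulated ones. Without the genotype term, 5 were called, and Nfkbia was lost (limma adjusted p = 0.0602).

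Between stimulated and fresh nTregs, Nfkb1 rose and the other 9 genes fell, although Rela was at 0.10 on the log2 scale at an equal FPKM sum. Of all genes tested, 22.5% were called higher (2527) and 27.3% lower (3061). The median difference was -1.09 over the 10 genes and -0.05 over all genes, and 6 of the 10 were at -1 or below, against 6.68% of all genes. At an equal FPKM sum the medians were -0.55 and 0.47, a gap of -1.02 against -1.05 in the deposited scaling, and 3 of the 10 (Tnfaip3, Nfkbia and Nfkbie) were at -1 or below, against 2.91% of all genes. Genes outside the pathway fell in the same libraries. All 4 T cell genes tested fell, with a median of -1.07 (-0.49 at an equal FPKM sum, where 3 fell), and Cd3g went from 545 and 576 to 264 and 274 FPKM. Of 3 nuclear-retained RNAs, which can track RNA quality, 2 fell and 1 rose, and Malat1 went from 3921 and 3589 to 1650 and 1295 FPKM. The part of these differences in the falls of the 10 genes was not tested. Both stimulated libraries were below both fresh ones for 9 of the 10, against 40.1% of all genes, and above them for Nfkb1, against 33.8%. This contrast and the previous one share the fresh nTreg libraries, so a gene high in those libraries alone moves in both. With every library brought to the same FPKM sum, 6724 of all genes were called higher and 1022 lower after stimulation, with 1 of the 10 higher and 7 lower. The same scaling gave 2767 higher and 667 lower between fresh nTregs and naive cells, with 8 of the 10 higher. The falls of Tnfaip3, Nfkbia, Nfkbie, Nfkbib, Rel and Traf1 passed in all 14 alternatives tried. Without the WT fresh library, Nfkb1 (limma adjusted p = 0.119), Nfkb2 (0.0928), Rela (0.133) and Relb (0.0593) lost their calls, and without the cKO fresh library Nfkb1 (0.172) and Rela (0.0575) did. Over all genes, 1363 were then called higher and 1540 lower without the WT fresh library, and 1341 and 1681 without the cKO one.

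As FPKM is scaled by transcript length, levels can be summed over genes. The 5 subunits together were 179 and 172 FPKM in naive T cells, 241 and 238 in nTregs before and 197 and 233 after stimulation. The 3 IkB genes together were 394 and 486 in naive T cells, 547 and 706 in nTregs before and 87.1 and 92.1 after stimulation. IkB RNA thus stood at 2.20 to 2.97 times subunit RNA in the 4 unstimulated libraries and at 0.442 and 0.396 times in the stimulated ones. Tnfaip3 alone stood at 3.51 to 4.28 times the subunit sum before and at 0.0796 and 0.0697 times after stimulation. These ratios within a library do not depend on the scaling between libraries.

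**Figure D3:**
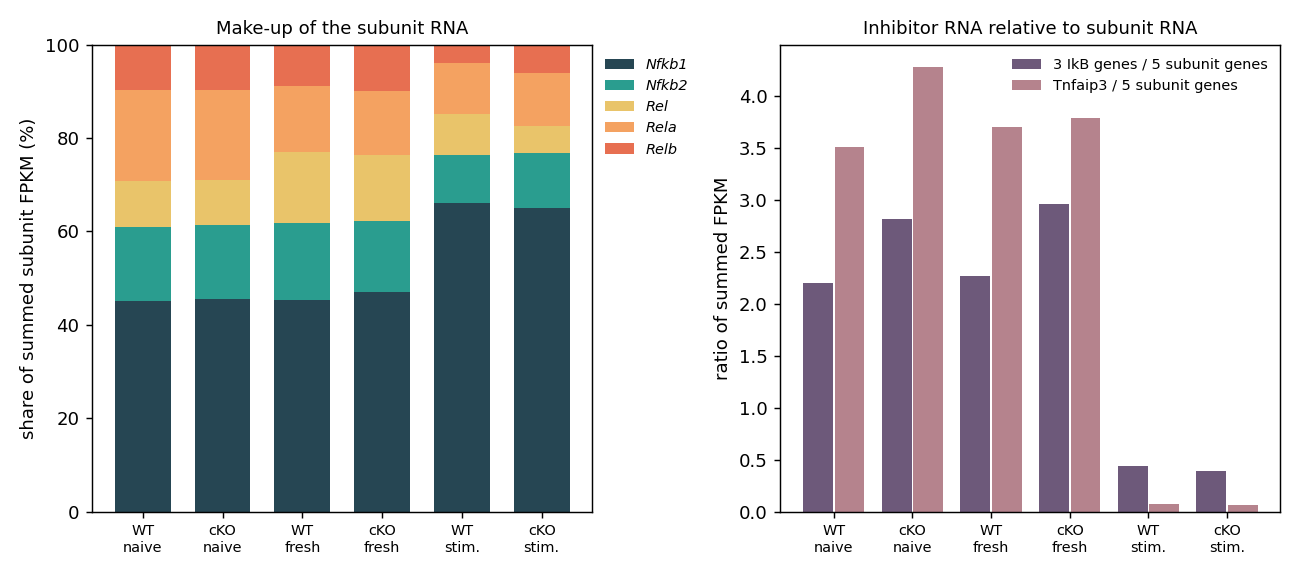
Left, the share of each of the 5 subunit genes in their summed FPKM (vertical axis, %) in each of the 6 libraries. Right, the ratio of summed FPKM of the 3 IkB genes, and of Tnfaip3, to that of the 5 subunit genes. Nfkb1 takes 45.0% to 47.0% of the subunit sum in unstimulated cells and 66.1% and 65.0% after stimulation, and both ratios are above 2 before it and below 0.5 after it.

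The make-up of the subunit RNA also shifted. The Nfkb1 share was 45.0% and 45.5% in naive T cells, 45.4% and 47.0% in nTregs before and 66.1% and 65.0% after stimulation. The Rel share was 9.83% and 9.69% in naive T cells, 15.2% and 14.3% in nTregs before and 8.88% and 5.82% after stimulation. The Rela share went from 19.4% and 19.3% in naive cells to 14.0% and 13.8% in fresh and 11.0% and 11.3% in stimulated nTregs. Nfkbia made up 92.6% to 93.9% of the IkB sum in unstimulated cells and 82.1% and 82.4% after stimulation.

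Immediate early genes, which are switched on within minutes by receptor signals and by handling of cells, fell with the inhibitors after stimulation. Of 11 such genes tested, 9 fell and none rose, with Fos at -6.01, Dusp1 at -5.42 and Junb at -4.11 on the log2 scale. Their summed FPKM was 2056 and 2314 in naive T cells, 2571 and 2642 in nTregs before and 209 and 250 after stimulation. Between fresh nTregs and naive cells 6 of the 11 rose and none fell, with a median of 0.50. Dusp1 went from 118.5 and 151 FPKM in naive cells to 366 and 461 in fresh nTregs, and Atf3 from 0.933 and 0.729 to 10.9 and 18.7. The part of these genes in the differences of the 10 genes was not tested. Among 8220 genes with a mean FPKM of at least 5, Fos had the pattern over the 6 libraries nearest to that of Tnfaip3, with a root mean square difference of 0.154 in centred log2(FPKM + 1). Ppp1r15a, a regulator of the stress-induced block of translation, came next at 0.343 (324 and 349 FPKM in naive T cells, 379 and 359 in nTregs before and 11.5 and 11.1 after stimulation). Nearest to Nfkbia were Ms4a4c (0.197) and the interferon-induced Mx1 (0.210). Nearest to Rel were Tgif1 (0.097) and Gpr174 (0.104), and Tgif1 was also second nearest to Traf1 (0.173), after I730030J21Rik (0.139). Nfkbie lay nearest to H2-Q5 (0.087), a gene of a multigene family, and Cxcr4 (0.096), and Relb to Hint2 (0.108) and Igflr1 (0.127). Nfkb1 lay nearest to Bsg (0.034) and Fubp3 (0.035), Nfkb2 to Slc35b2 (0.062) and Smad3 (0.066), Rela to Snx17 (0.034) and Trabd (0.037), and Nfkbib to Mnt (0.028) and Nlrc3 (0.049).

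B cell genes were higher in the fresh nTreg libraries, with a sum over 7 genes of 7.03 and 6.87 FPKM in naive T cells, 46.7 and 39.1 in nTregs before and 11.2 and 10.7 after stimulation. That sum was mostly Cd74 (30.6 and 26.0 FPKM in fresh nTregs) and Cd79b (12.0 and 11.2), while the defining genes Ms4a1 and Pax5 were at most 0.165 in any library. The part of these genes in the rises of fresh nTregs was not tested. The 7 myeloid and dendritic genes summed to between 4.65 and 7.26 FPKM, and the 4 erythroid genes to at most 1.04. Of the former, Cd68 was 2.4 to 4.0 FPKM over the libraries. Lyz2 was 2.78 and 0.372 FPKM in naive T cells, 3.78 and 1.12 in nTregs before and 0.152 and 0.821 after stimulation. The 6 NK and cytotoxic genes summed to 33.1 and 21.6 FPKM in naive T cells, 21.4 and 32.9 in nTregs before and 23.6 and 68.1 after stimulation. Nkg7 made up most of the last value, at 19.9 FPKM in WT and 63.7 in cKO stimulated nTregs, and Klrd1 was at most 0.600 and Prf1 at most 1.70 there. The part of these genes in the genotype differences was not tested. In bulk RNA, fewer cells of a type and less RNA per cell cannot be told apart.

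Other genes of the pathway were grouped by role in 4 lists. Among 22 kinases and adaptors that carry the signal to IkB, 3 rose and 5 fell in fresh nTregs against naive cells. Map3k14, the kinase NIK of the pathway that processes p100, fell by 0.86 on the log2 scale. Tab1 fell by 0.47 and Tab3, a partner of the kinase TAK1, rose by 0.51. After stimulation 4 rose and 11 fell. Bcl10, a signalling partner of Malt1, fell by 1.25, while Malt1 itself rose by 1.04. Traf6, a ubiquitin ligase, rose by 1.92 (22.2 and 20.0 FPKM in fresh and 80.1 and 84.5 in stimulated nTregs), and Birc2 fell by 1.21.

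Among 14 tested genes of other IkB proteins and brakes, 6 rose and none fell in fresh nTregs, led by Tank (1.12), N4bp1 (0.88), Nfkbiz (0.64) and Rnf11 (0.62). After stimulation 5 rose and 7 fell. Zc3h12a, which encodes the RNase Regnase-1, fell by 2.32, Nfkbid, an IkB protein of the nucleus, fell by 2.27, and Nfkbiz, another one, fell by 1.22. Rnf11, which works with A20, rose by 1.36. Nfkbid was 90.7 and 98.9 FPKM in fresh and 17.0 and 20.9 in stimulated nTregs.

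Among 11 tested receptors, 8 rose and 1 fell in fresh nTregs. Il1rl1, the receptor for IL-33, rose by 4.21, Tnfrsf4 (OX40) by 3.93, Tnfrsf9 (4-1BB) by 3.84 and Tnfrsf1b (TNF receptor 2) by 2.76. After stimulation 4 rose and 4 fell, with Cd28 at -1.79, Cd40 at 1.39, Cd27 at -0.95 and Tnfrsf1a at -0.91. Among 18 tested NF-kB response genes, 10 rose and none fell in fresh nTregs, with Cd83 at 4.83, Bcl2a1d at 3.07, Ebi3 at 2.82 and Bcl2a1b at 2.63. Bcl2a1b and Bcl2a1d are near-identical copies, and their split is uncertain. After stimulation 6 rose and 9 fell. The chemokine genes Ccl3 and Ccl4 rose by 4.39 and 3.45 (Ccl3 0.509 and 0.896 FPKM in fresh, 21.5 and 54.9 in stimulated nTregs), and Gadd45b and Cd83 fell by 3.56 and 2.22. Ccl3, like Cd40, passed the filter only through the stimulated libraries. All of these calls are limma calls over the 11224 genes, so the shares of all genes called above apply to each list. At an equal FPKM sum the counts that rose and fell after stimulation were 8 and 8 for kinases and adaptors, 7 and 4 for brakes, 7 and 3 for receptors and 6 and 6 for response genes. Sharpin, Cyld, Otulin, Itch and Icam1, which fell in the deposited scaling, were above 0 there, and Itch was called higher (0.26, limma adjusted p = 0.0468); these 5 are named for that change, after their values were seen. Between fresh nTregs and naive cells, 8 kinases and adaptors rose and 2 fell at an equal FPKM sum, against 3 and 5 in the deposited scaling. Of all genes, 2767 were called higher and 667 lower at that equal sum. The median after stimulation was -0.30 for kinases and adaptors, -0.31 for brakes, 0.10 for receptors and -0.44 for response genes, against -1.09 for the 10 genes. At an equal FPKM sum the 4 list medians were 0.23, 0.25, 0.67 and 0.01, beside 0.47 for all genes.

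**Figure D4:**
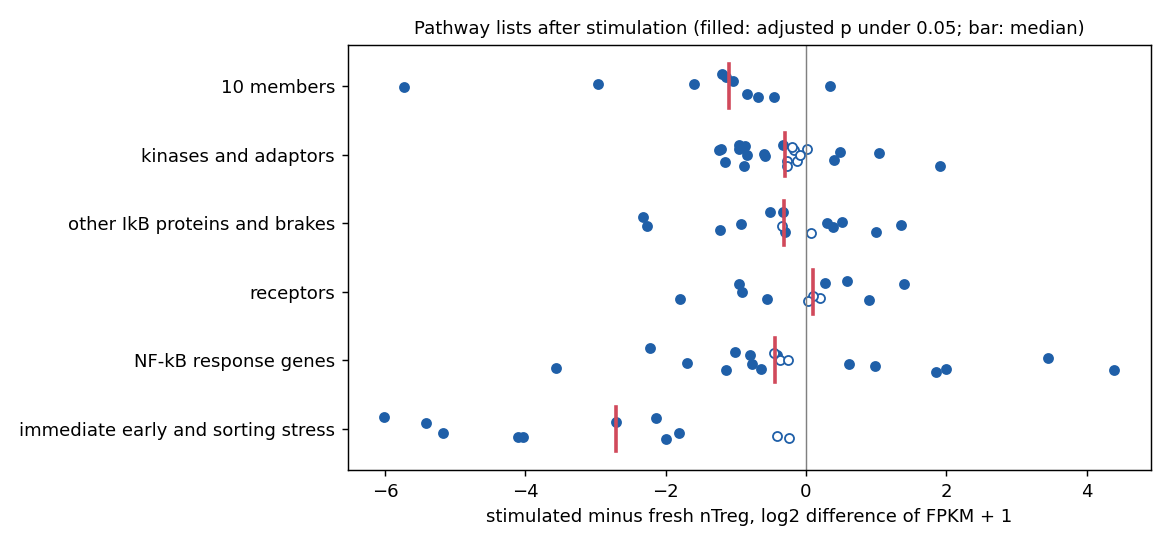
Log2 difference of FPKM + 1 between stimulated and fresh nTregs (horizontal axis) for each gene (points) of the 10 genes, the 4 pathway lists and the immediate early genes (rows); filled points have a limma adjusted p under 0.05 and red bars are medians. The medians are -1.09 for the 10 genes and -2.71 for the immediate early genes, and the pathway lists have genes on both sides of 0.

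The study compared WT with YAP cKO cells. Over the 3 populations none of the 10 genes was called between genotypes by limma, and 1, Nfkbia, had an unadjusted p under 0.05. Of all genes, 0.258% were called higher in cKO (29) and 0.116% lower (13), with 1346 at an unadjusted p under 0.05. Nfkbia was at 0.26 (SE 0.08, limma adjusted p = 0.310), higher in cKO in 3 of 3 populations. Without either stimulated library Nfkbia was at 0.35. In both cases that value comes from the same unstimulated libraries, as a lone stimulated library holds no genotype difference. Over all 13 alternatives its difference ran from 0.20 to 0.35. Traf1 was at -0.33 (SE 0.15, limma adjusted p = 0.447) and lower in cKO in 3 of 3 populations, but at -0.10 without either naive library. Rel was at -0.17 (SE 0.08, limma adjusted p = 0.473) and lower in 3 of 3. Relb was at 0.30 (SE 0.17, limma adjusted p = 0.543), and at 0.028 without either stimulated library. The other 6 genes were between 0.05 and 0.13, and of these Nfkbib and Tnfaip3 were also higher in cKO in 3 of 3 populations. Some of these differences were small, with Nfkbia at 0.08, Tnfaip3 at 0.05 and Traf1 at -0.02 in stimulated nTregs and Rel at -0.07 in naive cells. Signs are those of the deposited scaling. The FPKM sums were 534274 in WT and 595524 in cKO stimulated nTregs, so an equal sum lowers cKO against WT there. The small positive differences of Nfkbia and Tnfaip3 in those cells therefore depend on the scaling. The share of all genes with the same sign in 3 of 3 was not counted.

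Within a population there is 1 library per genotype and no test, and intervals cover counting error only, at 95%. Folds within a population are plain ratios of FPKM, while the log2 differences and intervals are of FPKM + 1. No member was 2-fold apart in any population, where 0.661% of genes were at least 2-fold higher and 0.536% lower in cKO naive cells, 0.634% and 0.395% in fresh and 1.21% and 0.693% in stimulated nTregs. In naive cells Traf1 was 1.77-fold lower in cKO (log2 difference -0.79, interval -0.98 to -0.61), Nfkbia was 1.24-fold higher (0.31, 0.26 to 0.37) and Tnfaip3 1.17-fold higher (0.23, 0.21 to 0.26). The other 7 intervals included 0. In fresh nTregs Nfkbia was 1.31-fold higher in cKO (0.39, 0.34 to 0.43), and Traf1 (-0.18), Nfkb2 (-0.13) and Rel (-0.11) were slightly lower, with intervals below 0. The interval of Tnfaip3, which stood on the most fragments, included 0 (0.01, -0.01 to 0.03).

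In stimulated nTregs, in the deposited scaling, the intervals of all 5 subunits left 0, and those of the inhibitors and Traf1 included it. Such intervals were estimated for the described genes and the deposited scaling only, here and in the other populations. The share of all genes whose intervals would leave 0 is therefore not known. Relb was 1.89-fold higher in cKO (0.84, 0.55 to 1.12), Nfkb2 1.36-fold (0.43, 0.27 to 0.60), Rela 1.22-fold (0.27, 0.10 to 0.44) and Nfkb1 1.16-fold (0.21, 0.16 to 0.27). Rel was 1.29-fold lower (-0.35, -0.47 to -0.22). The median of all genes was 0.04 here and -0.11 at an equal FPKM sum, where Nfkb1 stood at 0.06 and Rel at -0.50. The drop in that median is larger than the lower interval end of Rela (0.10), so the split of subunits from inhibitors depends on the scaling. The change on stimulation, cKO minus WT, was 0.73 for Relb (0.39 to 1.07), 0.56 for Nfkb2 (0.36 to 0.77), 0.31 for Rela (0.09 to 0.54) and 0.19 for Nfkb1 (0.10 to 0.27). It was -0.30 for Nfkbia (-0.44 to -0.16) and -0.24 for Rel (-0.39 to -0.09), and 4 intervals included 0. Whether mice would differ in this way was not tested, as no group has a second library.

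**Figure D5:**
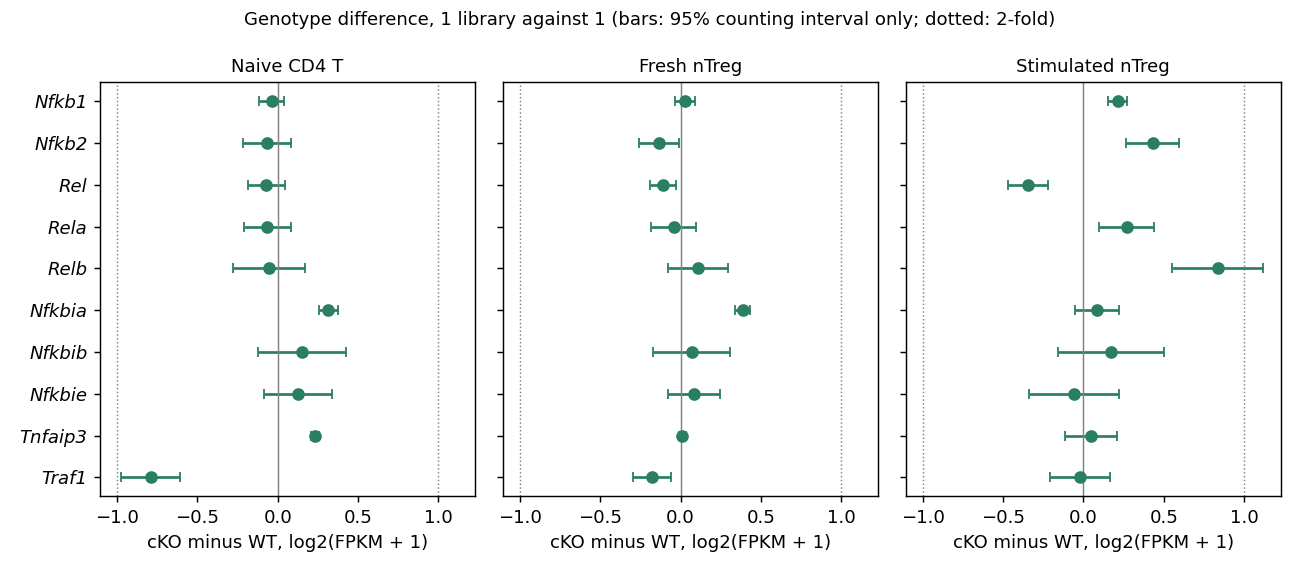
Difference of log2(FPKM + 1), cKO minus WT (horizontal axis), for the 10 genes in naive CD4 T cells, fresh nTregs and stimulated nTregs (panels), 1 library against 1; bars are 95% counting intervals and dotted lines mark a 2-fold difference. Traf1 at -0.79 in naive cells and Relb at 0.84 in stimulated nTregs lie farthest from 0, both inside the 2-fold lines.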

How the data were processed

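The authors sequenced ribosome-depleted total RNA (TruSeq Stranded Total RNA, 322 ng of input, 12 PCR cycles), per the labels' protocols. Per the submitters' processing notes, FastQC, TopHat, Cuffdiff and Cuffnorm were used with mm10, without versions. The deposited values are FPKM per RefSeq transcript, which the authors scaled across the 6 libraries with Cuffnorm. Without counts, count models were left out. Repeated rows were taken once (32860 rows, 32547 transcripts), RefSeq (GRCm38.p6) named 32101 transcripts, the deposited symbol was used otherwise, and transcripts were summed per gene.

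limma 3.58.1 (R 4.3.3) was fitted to log2(FPKM + 1) with additive terms for population and genotype and an intensity trend. The fit held the 11224 genes at 1 FPKM or more in 2 or more libraries, with 2 residual and 4.02 prior degrees of freedom. Tests were two-sided and adjusted with Benjamini-Hochberg over all these genes, with adjusted p under 0.05 called. The script was tested on simulated data. Depth per library is not in the table. The worth of 1 fragment was therefore estimated from the steps between low values, of which 76.0% to 77.5% were whole fragments within 0.06 on the log2 scale, taking 150 nt off each transcript length. Counting intervals (95%) rest on it and leave out all other error, PCR duplication included.

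The 10 genes and the lists were chosen with earlier results of these data known. Named were the 10 genes, the 4 largest called genes per list and population contrast, the 2 nearest patterns per member, and marker genes, except items that are not reported here. Overlapping genes were read from GENCODE M21. Alternatives were the pseudocount, the scaling, the filter, the trend, the genotype term, the deposited symbols and leaving out each library.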

Additional observations from a re-analysis of the deposited data

Results flagged for a closer look

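Nfkb2 was flagged because its genotype difference had opposite signs in the nTreg populations. It was 0.43 (log2, cKO minus WT) in stimulated nTregs and -0.13 in fresh nTregs, and both counting intervals left out 0. There is 1 library per group, so the difference between these values was not tested.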

How the results depend on the processing

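Over 410 values of single genes by limma, 368 kept their direction and side of the threshold, 9 passed only in the alternative, 21 no longer passed and 12 changed sign. Rela between fresh nTregs and naive cells was 0.16 at an equal FPKM sum, 0.059 without WT naive and 0.04 without cKO fresh. Rela between stimulated and fresh nTregs, a called fall of 0.46, was 0.10 at an equal FPKM sum. Relb by deposited symbols was -1.55 between fresh nTregs and naive cells and -0.31 between cKO and WT. Without either stimulated library, the genotype differences of Nfkb1, Nfkb2 and Rela were -0.0044, -0.10 and -0.054. With any 1 library left out, they ran up to 0.12, 0.18 and 0.11, and Rela between fresh nTregs and naive cells ran from -0.12 to 0.059. Leaving out 1 library, the number of the 10 genes called higher ran from 2 to 8 in fresh nTregs against naive cells, from 0 to 1 after stimulation and from 0 to 1 between genotypes, and the number called lower after stimulation from 6 to 9. With 1 library left in a group, it is assumed to vary like the others.

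Counts over all genes also moved by more than 1.5 times. Leaving out 1 library, genes called higher and lower ran from 907 to 2312 and 370 to 2476 in fresh nTregs against naive cells (1853 and 1655 with all), from 1341 to 2467 and 1540 to 3041 after stimulation (2527 and 3061), and from 12 to 65 and 4 to 40 between genotypes (29 and 13). At an equal FPKM sum, 667 were lower in fresh nTregs, and 6724 higher and 1022 lower after stimulation. Without a filter, 821 genes were lower in fresh nTregs (1655 with it), 3946 higher after stimulation (2527) and 3 and 1 higher and lower in cKO (29 and 13). With deposited symbols, 10 and 5 were called between genotypes. Of 120 single-library differences, 5 moved by more than their counting error, all at an equal FPKM sum. No pairing by replicate was possible because the labels carry no replicate numbers and each group has 1 library. The genotype term sets libraries of 1 genotype beside each other, and without it 1 call of the 10 genes, Nfkbia in fresh nTregs against naive cells, was lost (limma adjusted p = 0.0602). The genotype intervals of Nfkbib and Nfkbie included 0 in every population. The part of depth in this was not tested.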
